A study of Mus musculus with 9 samples.

Results

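The genes described are the 9 Nodal and Lefty signalling genes Lefty1, Lefty2, Nodal, Tdgf1, Acvr1b, Acvr2b, Smad2, Smad7 and Skil. They were taken by symbol from the 44788 genes of the expression table. All 9 were found in all 9 libraries, and all 9 were among the 22268 genes tested. The study asked which genes differ in mouse embryonic stem cells (ESCs) that stably express Foxj3, a forkhead transcription factor, or Zbtb18, a zinc finger and BTB domain factor. All libraries came from the J1 ESC line. Foxj3-ES (3 libraries) and Zbtb18-ES (3 libraries) carried a lentiviral copy of the full coding sequence of Foxj3 or Zbtb18 with a puromycin resistance gene, and Control (3 libraries) was wild type J1. All cells were undifferentiated and had been grown without feeders and with LIF. Each modified group was 1 cell line, and the control carried no vector according to its label, so the effects of the factor, the virus and the selection cannot be told apart. The labels do not state whether libraries of 1 group are separate cultures, and p-values therefore reflect only the variation among these libraries, which could be technical.

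Nodal is a secreted ligand of the TGF-beta family. With the co-receptor Cripto, encoded by Tdgf1, it binds type I and type II activin receptors such as those encoded by Acvr1b and Acvr2b. The receptors phosphorylate Smad2 and Smad3, which enter the nucleus with Smad4 and act on target genes together with factors such as Foxh1. Nodal itself and both Lefty genes are targets of this signal in the mouse embryo, and the Lefty proteins are secreted inhibitors of Nodal, so the pathway carries its own positive and negative feedback. Smad7 blocks the receptors and SnoN, encoded by Skil, holds back Smad target genes. ESCs in culture express most of these genes and signal to themselves through Nodal and related ligands.

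Lefty1 and Lefty2 are neighbouring genes on the plus strand of chromosome 1, at 180935022 to 180938400 for Lefty1 and 180893108 to 180899103 for Lefty2 (GRCm38, GENCODE M21). Their coding sequences are each 1104 bases long and are identical at 1014 aligned positions, which is 91.8%. Of the stretches of 50 bases in the Lefty1 coding sequence, 26.6% also occur in Lefty2, and the longest identical run is 140 bases. Reads from such stretches could be counted for either gene, and the authors' handling of them is not stated in any source at hand. The following coding bases 34 to 93 of both genes, in exon 1 of 4, lie at chr1:180935143-180935202 for Lefty1 and chr1:180893217-180893276 for Lefty2 and are shown because reads from them can be told apart. Capitals mark the 18 of 60 bases at which the 2 genes differ.

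Lefty1: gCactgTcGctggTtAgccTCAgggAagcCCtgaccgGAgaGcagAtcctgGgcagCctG

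Lefty2: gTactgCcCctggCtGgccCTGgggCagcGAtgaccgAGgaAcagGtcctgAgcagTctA

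Nodal lies on chromosome 10 at 61417972 to 61425338, Tdgf1 on chromosome 9 at 110939603 to 110946158 on the minus strand, Acvr1b on chromosome 15 at 101174067 to 101213684 and Acvr2b on chromosome 9 at 119402118 to 119434995. Skil is on chromosome 3 at 31095058 to 31122577. All are protein-coding genes, and coordinates are those of GRCm38. RefSeq promoter sequences (GRCm38.p6) were matched for 4 of the 9 genes, namely Nodal, Tdgf1, Acvr1b and Acvr2b. They were searched on both strands for the Foxh1 motif AATNNACA and for the Smad motif CAGAC, over 250 bases before and 50 after the start. The Foxh1 motif occurred in 12.2% and the Smad motif in 49.6% of all 32851 promoters in the table. Tdgf1 had the Foxh1 motif 127 and 101 bases upstream of the start, with the Smad motif between them at 113 bases upstream. Acvr2b had the Smad motif 233 bases upstream, and Nodal and Acvr1b had neither in this window. The motifs CATCTG, an E-box bound by Zbtb18, and GTAAACA, a general forkhead motif, occurred in 17.2% and 3.6% of all promoters and in none of these 4. A match is a description of the letters and not of binding. The 250 bases upstream of the start are shown for the ligand and for its co-receptor, with motif letters in capitals, at chr10:61417722-61417971 (plus strand) for Nodal and chr9:110946159-110946408 (minus strand) for Tdgf1.

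Nodal: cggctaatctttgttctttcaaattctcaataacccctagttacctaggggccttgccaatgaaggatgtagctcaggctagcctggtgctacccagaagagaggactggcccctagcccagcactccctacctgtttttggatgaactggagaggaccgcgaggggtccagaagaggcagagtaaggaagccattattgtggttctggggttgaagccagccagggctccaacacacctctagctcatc

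Tdgf1: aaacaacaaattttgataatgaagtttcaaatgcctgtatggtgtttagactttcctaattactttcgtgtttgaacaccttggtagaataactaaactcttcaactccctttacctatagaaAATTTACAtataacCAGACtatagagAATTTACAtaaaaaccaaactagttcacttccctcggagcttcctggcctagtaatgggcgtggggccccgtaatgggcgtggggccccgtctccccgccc

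Levels are the deposited RPKM values (reads per gene length and library), which had been scaled by upper quartile (UQRPKM). From the steps between low values, 10890000 to 15330000 reads per library were estimated in genes of known length, taking the commonest step as 1 read, and a single read over 2000 bases added 0.427 to 0.667 UQRPKM. The lengths are those of the longest GENCODE M21 transcript and may differ from the authors'. For the members, bases by which RefSeq extends beyond the GENCODE gene were added, which took Acvr2b from 3175 to 10863 bases. Steps of 0.5 reads also occurred (29 genes in Foxj3-ES replicate 1, against 159 at 1 read). How many steps make 1 read was chosen gene by gene from these lengths. All read numbers are therefore estimates that may be off by a shared factor, and by a further factor for a single gene. By these estimates over the 9 libraries, Lefty1 rested on 30 to 308 reads, Lefty2 on 78 to 665, Nodal on 213 to 1237, Smad7 on 171 to 1148 and each of the others on at least 395. The highest estimate was 13214 for Tdgf1. Fold changes are differences of log2(UQRPKM + 1), which understates the change of low genes, and strongly so near 0. For Mixl1, a low gene described below, the log2 fold change in Zbtb18-ES was -1.77, while its mean was 6.64% of the Control mean. Alternatives that kept all libraries gave -3.11 to -0.74 for it. A gene was said to rise or fall where limma gave an adjusted p under 0.05 over all 22268 genes.

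The levels of the introduced factors overlapped between each line and Control. Foxj3 had 119.2, 168.4 and 176.7 UQRPKM in Foxj3-ES, against 123.9, 145.1 and 114.7 UQRPKM in Control (adjusted p = 0.388, limma). Zbtb18 had 34.9, 129.1 and 57.0 UQRPKM in Zbtb18-ES, against 46.4, 65.4 and 49.0 UQRPKM in Control (adjusted p = 0.715, limma). The library labelled Foxj3-ES replicate 1 thus lay within the range of Control for Foxj3, and the library labelled Zbtb18-ES replicate 1 lay below all 3 Control libraries for Zbtb18. Control replicate 2 stood apart by base composition: the 10% of genes richest in GC were shifted against the 10% poorest in GC by 0.97 on the log2 scale, while the other 8 libraries lay between -0.49 and 0.19. Calls of members and of named pathway genes that were lost without 1 of these 3 libraries are given below with that value. The ESC markers fixed for this work (Pou5f1, Sox2, Nanog, Zfp42, Esrrb, Dppa5a and Utf1) were all present, with summed levels of 37267 to 41480 UQRPKM in the Foxj3-ES libraries and 41515 to 57337 UQRPKM in Zbtb18-ES, against 32301 to 36175 UQRPKM in Control. A single marker reached 29527 UQRPKM in Zbtb18-ES and 14115 UQRPKM in Control. The sums thus lean on the most abundant markers, and single markers went both ways, as given below. Summed markers of the extraembryonic endoderm averaged 19.2 ± 4.19 UQRPKM in Foxj3-ES libraries and 15.9 ± 3.79 UQRPKM in Zbtb18-ES libraries. The Control libraries averaged 27.1 ± 0.512 UQRPKM (SD, n = 3 each), and the sums of both lines were lower without overlap. Gata4, Gata6, Sox17, Sox7 and Pdgfra were at 89.1%, 64.2%, 104%, 35.8% and 76.2% of the Control mean in Foxj3-ES. In Zbtb18-ES these genes were at 46.2%, 59.8%, 130%, 47.1% and 139%. None of them passed (limma, adjusted p of at least 0.144 in Foxj3-ES and 0.103 in Zbtb18-ES). Foxa2 and Dab2 were too low to test. Trophoblast markers summed to 3.21 to 7.71 UQRPKM in the Foxj3-ES libraries and 5.63 to 10.8 UQRPKM in the Zbtb18-ES libraries, against 1.76 to 4.0 UQRPKM in Control, and only Zbtb18-ES did not overlap Control. These levels are near the floor, with a highest single value of 6.3 UQRPKM. Cdx2, Elf5 and Hand1 were at 52.4%, 42% and 323% of the Control mean in Foxj3-ES and at 244%, 387% and 292% in Zbtb18-ES. The lowest adjusted p, for Hand1, was 0.126 in Foxj3-ES and 0.168 in Zbtb18-ES (limma), and Gata3 was too low to test. Summed neural markers were 364 to 412 UQRPKM in the Foxj3-ES libraries and 159 to 291 UQRPKM in the Zbtb18-ES libraries, against 426 to 708 UQRPKM in Control. For fibroblast markers the sums were 134 to 216 UQRPKM in the Foxj3-ES libraries and 54.9 to 81.7 UQRPKM in the Zbtb18-ES libraries, against 144 to 149 UQRPKM in Control. These sums lean on 1 abundant gene, as a single neural marker reached 653 UQRPKM in Control and a single fibroblast marker 207 UQRPKM in Foxj3-ES. In Zbtb18-ES, Sox1, Pax6 and Tubb3 were at 14.6%, 53.6% and 40.2% of the Control mean, but Map2 was at 199%. Sox1 (adjusted p = 0.0283) and Tubb3 (0.0118) passed there, while Pax6 (0.293) and Map2 (0.439) did not (limma). In Foxj3-ES the same 4 were at 29.7%, 61%, 74.4% and 148%, and only Sox1 passed (limma, adjusted p = 0.0459). In Foxj3-ES, Col1a1, Col1a2 and Thy1 were at 83.7%, 21.7% and 114%, and none of these passed (limma, adjusted p of at least 0.203). In Zbtb18-ES they were at 46%, 26.3% and 45.8%, and only Thy1 passed (limma, adjusted p = 0.0137). These marker calls were not followed over the alternatives. The part of these cell types in the differences below was not tested.

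Both Lefty genes were lower in both lines, and the other members differed less. In Foxj3-ES, Lefty1, Lefty2, Nodal and Acvr2b fell, which is 4 of 9 members, while 7.01% of all genes tested fell by the same rule. No member rose in Foxj3-ES by limma, at an adjusted or an unadjusted p under 0.05 (0 of 9), where 7.54% of all genes rose. In Zbtb18-ES, Lefty1, Lefty2 and Skil fell, which is 3 of 9 members against 6.50% of all genes, and again 0 of 9 members rose at an adjusted or an unadjusted p under 0.05, against 5.31% of all genes. The median log2 fold change of the members was -1.03 in Foxj3-ES and -0.58 in Zbtb18-ES, while that of all genes was -0.03 in Foxj3-ES and -0.02 in Zbtb18-ES. All 3 libraries lay below all 3 Control libraries for 6 members in Foxj3-ES (18.5% of all genes) and for 5 members in Zbtb18-ES (20.0% of all genes). The members had been chosen with earlier results of these data known, so these counts describe the members and are no independent test. Both comparisons share the same Control libraries.

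**Figure D1:**
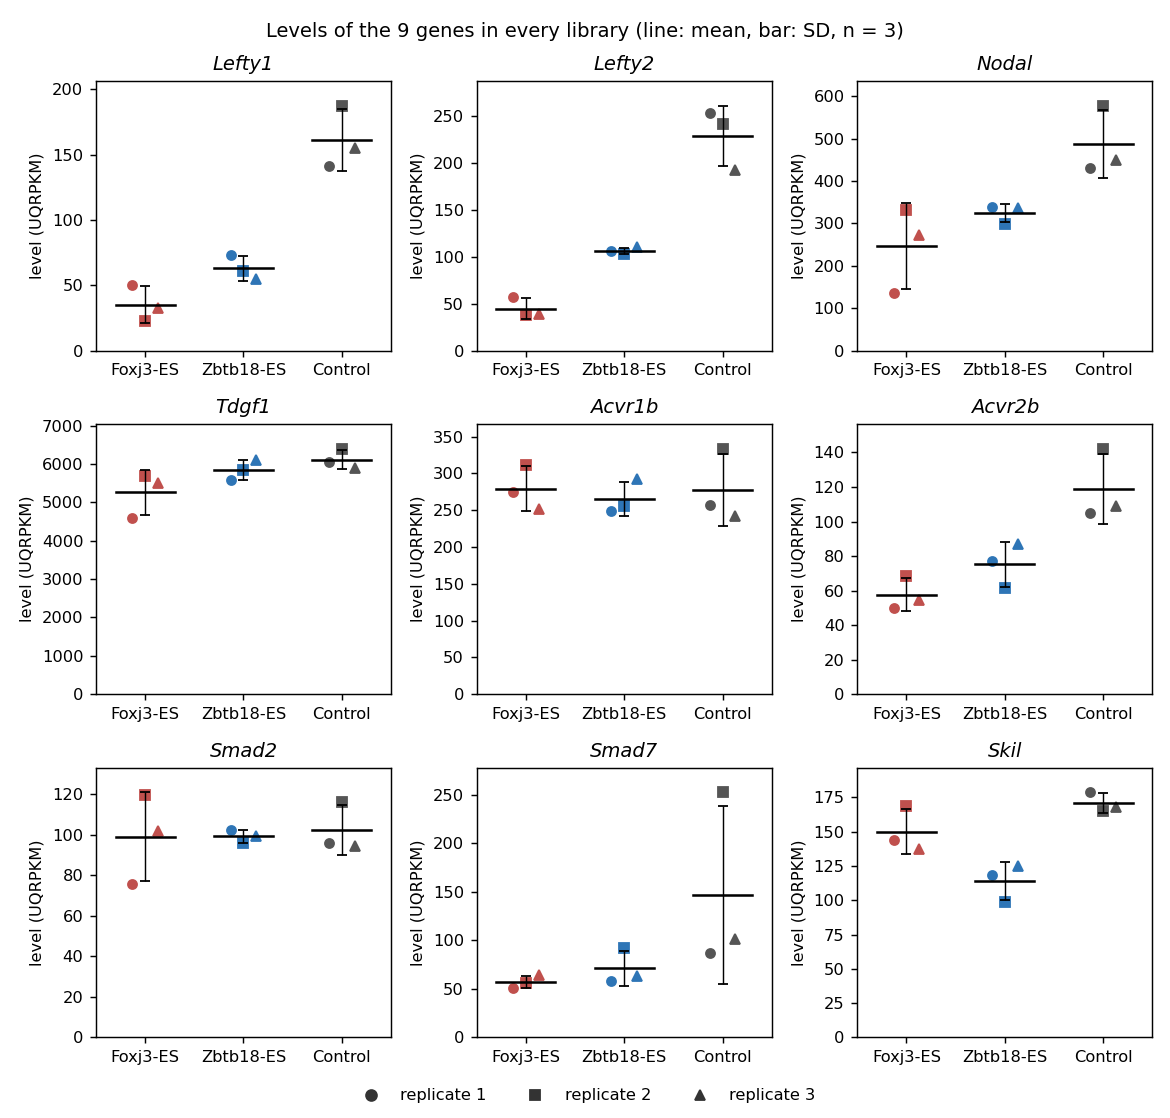
Levels of the 9 genes in UQRPKM on linear axes that start at 0, in Foxj3-ES, Zbtb18-ES and Control; points are libraries, horizontal lines are means and bars are SD (n = 3). Both Lefty genes are below every Control library in all 6 libraries of the lines, and Control replicate 2 is alone at 252.9 UQRPKM for Smad7.

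Among the inhibitors, Lefty1 had 50.3, 22.5 and 32.5 UQRPKM in Foxj3-ES, against 141.3, 187.5 and 154.8 UQRPKM in Control. Every Foxj3-ES library was thus below every Control library, and the highest Foxj3-ES value was under the lowest Control value by a wide margin. The mean in Foxj3-ES was 35.1 ± 14.1 UQRPKM, against 161 ± 23.8 UQRPKM in Control (SD, n = 3 each), which is 21.8% of the Control mean. This gave a log2 fold change of -2.23 (SE 0.27, limma, adjusted p = 0.00144). In Zbtb18-ES, Lefty1 had 73.2, 60.7 and 55.1 UQRPKM, also below every Control library, with a mean of 63.0 ± 9.27 UQRPKM or 39.1% of the Control mean. On the log2 scale the fold change in Zbtb18-ES was -1.34 (SE 0.27, limma, adjusted p = 0.0146).

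Lefty2, the second Nodal inhibitor of the pair, was the member with the largest fold change in Foxj3-ES. It had 57.7, 37.7 and 39.1 UQRPKM in Foxj3-ES, against 252.4, 241.2 and 191.7 UQRPKM in Control. The mean of 44.8 ± 11.2 UQRPKM in Foxj3-ES was 19.6% of the Control mean of 228 ± 32.3 UQRPKM (SD, n = 3 each). Its log2 fold change was -2.34 (SE 0.19, limma, adjusted p = 0.000292). In Zbtb18-ES the 3 libraries lay close together at 106.2, 103.0 and 109.9 UQRPKM, which is 46.6% of the Control mean. For Zbtb18-ES the log2 fold change was -1.09 (SE 0.19, limma, adjusted p = 0.00931).

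The calls of Lefty1 and Lefty2 in Foxj3-ES and of Lefty2 in Zbtb18-ES were kept in all 22 alternatives, including those without each of the 3 libraries named above. Lefty1 in Zbtb18-ES was kept in 21 and had an adjusted p of 0.0524 (limma) without Zbtb18-ES replicate 3, at a log2 fold change of -1.25 (0.0053 to 0.0524 over the alternatives). Because the pair can share reads, the 2 levels were also added within each library. The sum was 108, 60.2 and 71.6 UQRPKM in Foxj3-ES and 179, 164 and 165 UQRPKM in Zbtb18-ES, against 394, 429 and 346 UQRPKM in Control. The summed level averaged 20.5% of the Control mean in Foxj3-ES and 43.5% in the Zbtb18 line. The ratio of Lefty2 to Lefty1 was 1.15, 1.68 and 1.20 in the Foxj3-ES libraries and 1.45, 1.70 and 2.0 in Zbtb18-ES, against 1.79, 1.29 and 1.24 in Control, and the 3 groups overlapped.

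Lefty2 was also the only member that passed the test between the 2 lines. Its level in Zbtb18-ES was 2.37 times that in Foxj3-ES, and all 3 Zbtb18-ES libraries were above all 3 Foxj3-ES libraries. The log2 difference was 1.25 (95% interval 0.82 to 1.69, limma, adjusted p = 0.0252), in a comparison where 0.687% of all genes passed. Over the alternatives its adjusted p ran between 0.0108 and 0.116. Without Zbtb18-ES replicate 1 it was 1.26 with an adjusted p of 0.0633 (limma), and without Foxj3-ES replicate 1 it was 1.45 with an adjusted p of 0.0226. Lefty1 had the same order without overlap, at a log2 difference of 0.89 (SE 0.27), and did not pass (limma, adjusted p = 0.157).

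**Figure D2:**
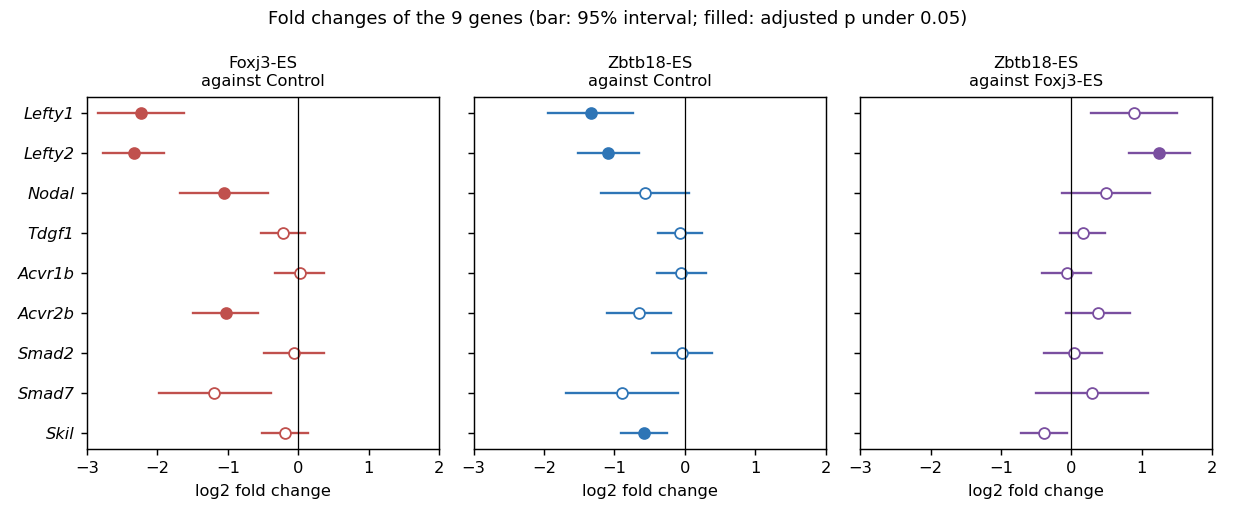
log2 fold changes of the 9 genes for Foxj3-ES against Control, Zbtb18-ES against Control and Zbtb18-ES against Foxj3-ES; bars are 95% intervals and filled points passed an adjusted p of 0.05 (limma). Lefty1 and Lefty2 lie furthest below 0 in Foxj3-ES, at -2.23 and -2.34, and Lefty2 alone is filled between the 2 lines.

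Nodal, the ligand itself, had 135.6, 332.6 and 273.6 UQRPKM in Foxj3-ES, against 430.0, 577.9 and 450.7 UQRPKM in Control. The groups did not overlap, but Foxj3-ES replicate 1 was far below the other 2 libraries of its line. The mean was 247 ± 101 UQRPKM in Foxj3-ES and 486 ± 80.1 UQRPKM in Control (SD, n = 3 each), at a log2 fold change of -1.06 (SE 0.28, limma, adjusted p = 0.0327). Without Foxj3-ES replicate 1 the log2 fold change was -0.67 (limma, adjusted p = 0.0472). The call was lost without any 1 of the Control libraries, with adjusted p values of 0.0627, 0.0858 and 0.0710 (limma) without replicates 1, 2 and 3, and log2 fold changes of -1.14, -0.93 and -1.11. It was also lost without the filter on low values, with only the 2 groups in the fit and without the limma trend, so in 6 of 22 alternatives. The adjusted p lay between 0.00654 and 0.0858 over all alternatives. In Zbtb18-ES, Nodal had 339.2, 299.6 and 336.1 UQRPKM, again below every Control library. A log2 fold change of -0.57 (95% interval -1.19 to 0.06) did not pass (limma, adjusted p = 0.220). It did pass without Foxj3-ES replicate 1 (limma, adjusted p = 0.0462, and up to 0.436 in the other alternatives), a library of the other line that enters the shared estimate of the spread.

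Set against Nodal within the same library, the inhibitors were reduced by more than the ligand in most libraries of the lines. The ratio of Lefty1 to Nodal was 0.371, 0.0675 and 0.119 in the Foxj3-ES libraries and 0.216, 0.203 and 0.164 in Zbtb18-ES, against 0.329, 0.325 and 0.343 in Control. All 3 Zbtb18-ES libraries and Foxj3-ES replicates 2 and 3 were below every Control library. Foxj3-ES replicate 1, which had the lowest Nodal and the highest Lefty1 of its line, was above all 3 Control libraries. For Lefty2 the ratio to Nodal was 0.425, 0.113 and 0.143 in the Foxj3-ES libraries and 0.313, 0.344 and 0.327 in Zbtb18-ES, against 0.587, 0.417 and 0.425 in Control. With 3 libraries against 3, an exact permutation test of a ratio cannot go below p = 0.1, so none is given.

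**Figure D3:**
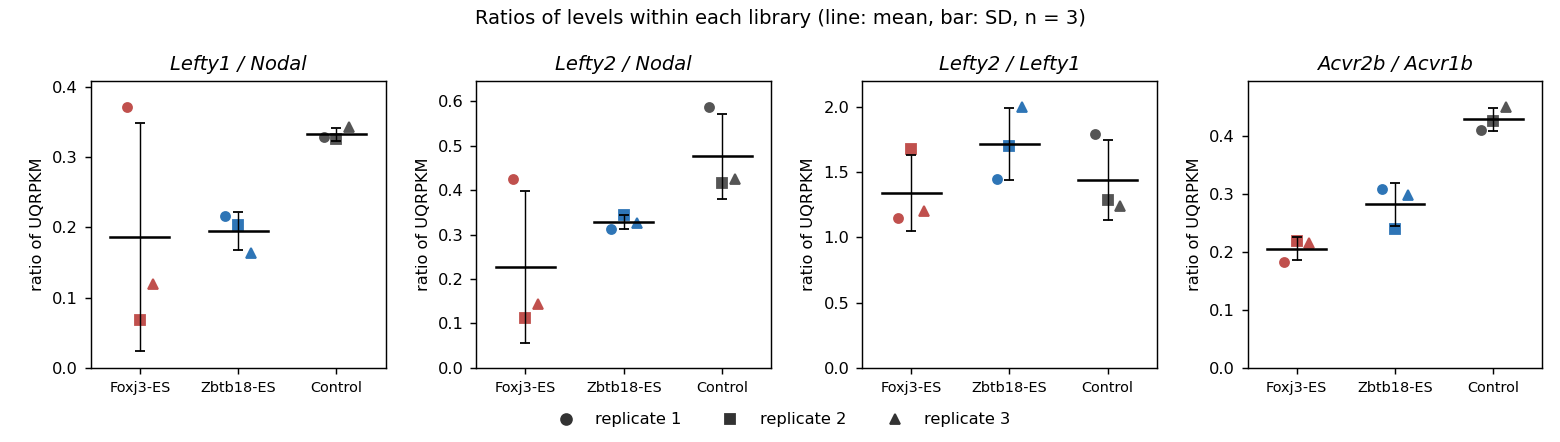
Ratios of UQRPKM within each library for Lefty1 to Nodal, Lefty2 to Nodal, Lefty2 to Lefty1 and Acvr2b to Acvr1b; points are libraries, lines are means and bars are SD (n = 3). Foxj3-ES replicate 1 sits apart from replicates 2 and 3 of its line for both Lefty to Nodal ratios, while the Acvr2b to Acvr1b ratio of all 6 libraries of the lines lies below the Control range of 0.410 to 0.450.

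Tdgf1, the co-receptor gene, had the highest level of the 9 genes in every library. It had 4593.7, 5674.6 and 5517.2 UQRPKM in Foxj3-ES and 5593.7, 5834.8 and 6095.8 UQRPKM in Zbtb18-ES, against 6058.6, 6394.9 and 5896.2 UQRPKM in Control. The 3 Foxj3-ES libraries were below every Control library, while Zbtb18-ES overlapped Control. The log2 fold change was -0.22 (95% interval -0.53 to 0.09) for Foxj3-ES and -0.07 (95% interval -0.38 to 0.25) for Zbtb18-ES, and neither passed (limma, adjusted p = 0.325 in Foxj3-ES and 0.808 in Zbtb18-ES). In Foxj3-ES it passed after quantile normalization, at -0.78 (limma, adjusted p = 0.0118), and after scaling all libraries to the same sum, at -0.57 (adjusted p = 0.0167), while the adjusted p reached 0.658 in other alternatives. Same-sum scaling moved the median of all genes to -0.35 for Foxj3-ES and -0.16 for Zbtb18-ES. The pseudogene Tdgf1-ps1 had 3475.1 to 3888.3 UQRPKM in Foxj3-ES and 3937.8 to 4469.6 UQRPKM in Zbtb18-ES, against 4255.9 to 4731.6 UQRPKM in Control, and reads of Tdgf1 may have been divided between the 2.

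The receptor genes did not move together. Acvr1b, which encodes the type I receptor ALK4, had 274.0, 311.6 and 251.0 UQRPKM in Foxj3-ES and 248.4, 255.8 and 292.2 UQRPKM in Zbtb18-ES, against 256.5, 333.3 and 241.6 UQRPKM in Control. The 3 groups overlapped, and the 95% interval of the log2 fold change was -0.33 to 0.37 for Foxj3-ES and -0.40 to 0.30 for Zbtb18-ES. Acvr2b, which encodes a type II receptor, had 50.1, 68.3 and 54.3 UQRPKM in Foxj3-ES and 76.9, 61.3 and 87.1 UQRPKM in Zbtb18-ES, against 105.2, 142.1 and 108.8 UQRPKM in Control. All 6 libraries of the lines were below every Control library. Acvr2b fell in Foxj3-ES, at a log2 fold change of -1.03 (SE 0.21, limma, adjusted p = 0.0108), and this call was kept in all 22 alternatives. In Zbtb18-ES the log2 fold change was -0.65 (95% interval -1.11 to -0.20) and did not pass (limma, adjusted p = 0.0672). It did pass in 3 of 22 alternatives, namely a filter at 10 UQRPKM, protein-coding genes only and same-sum scaling, with an adjusted p of 0.0236 to 0.19 over all of them. The ratio of Acvr2b to Acvr1b within a library was 0.183, 0.219 and 0.216 in the Foxj3-ES libraries and 0.309, 0.240 and 0.298 in Zbtb18-ES, against 0.410, 0.426 and 0.450 in Control. An antisense gene overlaps 3909 bases of Acvr2b in the annotation, and no source at hand states whether the counting used strand.

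Smad2, which carries the signal into the nucleus and lies on chromosome 18 at 76241580 to 76310963, was near 100 UQRPKM in most libraries. It had 75.8, 119.3 and 102.0 UQRPKM in Foxj3-ES and 102.3, 95.9 and 99.2 UQRPKM in Zbtb18-ES, against 96.0, 116.3 and 94.5 UQRPKM in Control. The groups overlapped, and the 95% interval of the log2 fold change was -0.48 to 0.36 for Foxj3-ES and -0.46 to 0.38 for Zbtb18-ES.

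Smad7, an inhibitory Smad and itself a target of the signal, lies on chromosome 18 at 75367529 to 75395935. It had 51.3, 56.4 and 63.9 UQRPKM in Foxj3-ES, against 87.1, 252.9 and 101.6 UQRPKM in Control. All Foxj3-ES libraries were lower, but Control replicate 2 held 2.90 times the level of the lowest Control library. The log2 fold change was -1.19 (SE 0.36, limma, adjusted p = 0.0512), which does not pass, and without Control replicate 2 it was -0.71 (adjusted p = 0.0726). The adjusted p lay between 0.00996 and 0.134 over the alternatives, and it passed in 7 of 22. In Zbtb18-ES, Smad7 had 57.8, 92.0 and 63.8 UQRPKM, which overlapped Control. There the log2 fold change was -0.90 (limma, adjusted p = 0.133), and -0.43 (adjusted p = 0.289) without Control replicate 2. After correction for GC content and length the values were -0.85 in Foxj3-ES (limma, adjusted p = 0.0609) and -0.47 in Zbtb18-ES (adjusted p = 0.301), and the GC content of the longest annotated Smad7 transcript was 56.9%.

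Skil, a repressor of Smad targets that is induced by the same signal, had a different order of groups from the Lefty genes. It had 118.6, 98.9 and 125.0 UQRPKM in Zbtb18-ES, against 178.9, 165.1 and 168.1 UQRPKM in Control, and the groups did not overlap. It fell in Zbtb18-ES at a log2 fold change of -0.58 (SE 0.15, limma, adjusted p = 0.0332). In Foxj3-ES it had 143.7, 168.5 and 137.5 UQRPKM, which overlapped Control, at a log2 fold change of -0.19 (95% interval -0.52 to 0.14, limma, adjusted p = 0.435). The log2 difference of Zbtb18-ES and Foxj3-ES was -0.39 (95% interval -0.72 to -0.06, limma, adjusted p = 0.238), so that a difference between the lines was not shown. The call in Zbtb18-ES was lost in 8 of 22 alternatives, among them that without Zbtb18-ES replicate 1, at -0.61 (limma, adjusted p = 0.0695), while without Control replicate 2 it was kept at -0.61 (adjusted p = 0.0494). Its adjusted p lay between 0.0129 and 0.104 over the alternatives.

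Without the libraries that stood apart, the number of members that fell in Foxj3-ES was 4 without Foxj3-ES replicate 1 and 3 without Control replicate 2, where Nodal was lost. The number that fell in Zbtb18-ES was 2 without Zbtb18-ES replicate 1 and 3 without Control replicate 2. It was 1, Lefty2, without Zbtb18-ES replicate 3. The spread within a group also differed between members. In Foxj3-ES the coefficient of variation was 40.9% for Nodal and 40.2% for Lefty1, and 11.1% for Tdgf1. In Zbtb18-ES it was 3.22% for Lefty2 and 3.20% for Smad2, and in Control it was 62.4% for Smad7 and 4.16% for Tdgf1.

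**Figure D4:**
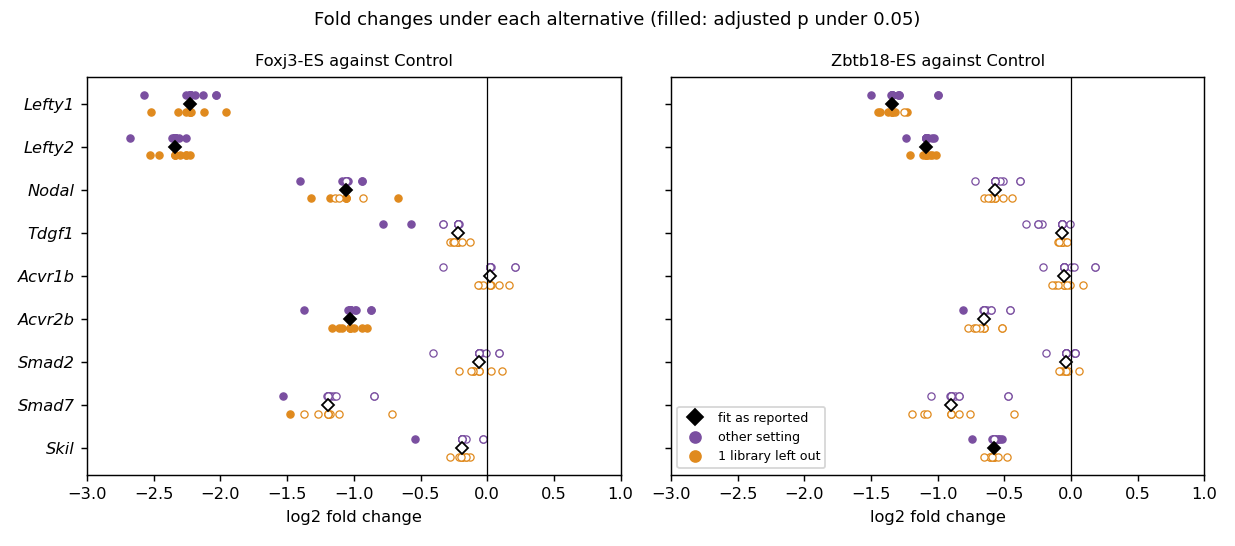
log2 fold changes of the 9 genes for Foxj3-ES against Control and Zbtb18-ES against Control as reported (diamonds), under other settings and with 1 library left out; filled points passed an adjusted p of 0.05 (limma). Lefty2 is filled throughout in both lines, while Nodal and Smad7 in Foxj3-ES and Skil in Zbtb18-ES change between filled and open.

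The order of levels, which are per length, was also compared. Tdgf1 was the highest in all 9 libraries, and Nodal had rank 2 in all but Foxj3-ES replicate 1, where it had rank 4. Lefty1 had rank 8 or 9 of the 9 genes in the 6 libraries of the lines and rank 6 in all 3 Control libraries. Lefty2 had ranks from 4 to 8 in the lines and rank 4 or 5 in Control.

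Of the other genes of the pathway, 48 were listed and 42 passed the filter on low values. In the Foxj3 line 8 of the 42 fell and 1 rose, while 7 fell and 0 rose in the Zbtb18 line (limma, with 1 higher at an unadjusted p under 0.05). By the same rule 7.01% of all genes fell and 7.54% rose in the Foxj3 line, while 6.50% fell and 5.31% rose in the Zbtb18 line. The median log2 fold change of the 42 was -0.45 for Foxj3-ES and -0.34 for Zbtb18-ES, beside medians over all genes of -0.03 for Foxj3-ES and -0.02 for Zbtb18-ES. The count called in Foxj3-ES was 4 in place of 9 without Foxj3-ES replicate 1 or 3, 2 without Control replicate 1 and 3 without Control replicate 3, and that in Zbtb18-ES was 4 in place of 7 without Zbtb18-ES replicate 3. Between the 2 lines 0 of the 42 passed (limma, with 8 at an unadjusted p under 0.05), where 153 of all 22268 genes did. The genes below the filter were Inhba, Tgfb2, Acvr1c, Cer1, Lhx1 and Foxa2, of which Acvr1c, a further type I receptor, and Cer1, another secreted Nodal inhibitor, were listed at 0 in every library.

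Among the ligands and the enzymes that process them, 3 of 8 tested genes fell in the Foxj3 line (7.01% of all genes) and 4 of 8 in the Zbtb18 line (6.50% of all genes). Inhbb, which encodes the beta B subunit of activin B, had 101.4, 201.7 and 109.3 UQRPKM in Foxj3-ES and 58.9, 52.8 and 52.9 UQRPKM in Zbtb18-ES, against 266.0, 346.0 and 285.0 UQRPKM in Control. The 3 groups did not overlap, and unlike the Lefty genes the lowest libraries were those of Zbtb18-ES. The log2 fold change was -1.18 in Foxj3-ES (limma, adjusted p = 0.0123) and -2.42 in Zbtb18-ES (adjusted p = 0.000892). The log2 difference of Zbtb18-ES and Foxj3-ES was -1.24 (95% interval -1.78 to -0.70) and did not pass (limma, adjusted p = 0.0568). After correction for GC content and length, the fall in Foxj3-ES was -0.60 and no longer passed (limma, adjusted p = 0.106, with 0.00243 to 0.133 over the alternatives). The same correction moved the Zbtb18-ES value to -1.66, and that call was kept (adjusted p = 0.00338, limma).

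Gdf3, a Nodal-related ligand that uses Cripto, fell in Foxj3-ES by 0.61 on the log2 scale (limma, adjusted p = 0.0155) and by 0.76 in Zbtb18-ES (adjusted p = 0.00834). Its Foxj3-ES call was lost in 3 of 22 alternatives, those without Foxj3-ES replicate 3 or Control replicate 1 or 3, with an adjusted p of up to 0.0634. Gdf1, a ligand that pairs with Nodal, fell in Zbtb18-ES, with 8.1, 6.2 and 5.5 UQRPKM, against 17.2, 27.3 and 22.9 UQRPKM in Control. Its log2 fold change of -1.62 (limma, adjusted p = 0.0126) was -0.83 after correction for GC content and length and did not pass (adjusted p = 0.104, with 0.00529 to 0.139 over the alternatives). Furin, a protease that cleaves the Nodal precursor, fell by 1.08 in Foxj3-ES (limma, adjusted p = 0.0361) and by 1.29 in Zbtb18-ES (adjusted p = 0.0219). Leaving out Control replicate 2 gave -0.76 in Foxj3-ES (limma, adjusted p = 0.0766) and -0.97 in Zbtb18-ES (adjusted p = 0.0454). The call was lost in 8 of 22 alternatives for Foxj3-ES, with the highest adjusted p of 0.117 without Foxj3-ES replicate 1, and in 1 for Zbtb18-ES, without Zbtb18-ES replicate 1 (0.0713).

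Of the 5 other receptor and co-receptor genes tested, 0 passed in either line (limma, with 0 in Foxj3-ES and 1 in Zbtb18-ES at an unadjusted p under 0.05). Among 6 tested inhibitors outside the cell or at the membrane, 1 rose in Foxj3-ES and 0 passed in Zbtb18-ES (limma, with 1 higher there at an unadjusted p under 0.05). Of all genes, 7.01% fell and 7.54% rose in Foxj3-ES, and 6.50% fell and 5.31% rose in Zbtb18-ES. The inhibitor that rose was Fstl3, a follistatin-like protein that binds activins. It had 30.6, 74.2 and 60.3 UQRPKM in Foxj3-ES, against 16.5, 23.6 and 20.3 UQRPKM in Control, at a log2 fold change of 1.33 (limma, adjusted p = 0.0404). That call was lost in 10 of 22 alternatives, with 1.45 (limma, adjusted p = 0.0556) without Control replicate 2 and an adjusted p of 0.0192 to 0.122 over all of them.

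Of 13 Smads and partners, 2 fell in each line, beside 7.01% of all genes in the Foxj3 line and 6.50% in the Zbtb18 line. They were Smad4 and Ski in both comparisons, which share their Control libraries. Smad4, the common partner of the receptor Smads, had 115.6, 123.5 and 107.0 UQRPKM in Foxj3-ES and 111.3, 114.4 and 122.3 UQRPKM in Zbtb18-ES, against 167.6, 189.8 and 164.4 UQRPKM in Control. The log2 fold change of Smad4 was -0.59 in Foxj3-ES (limma, adjusted p = 0.0200) and -0.58 in Zbtb18-ES (adjusted p = 0.0251). These calls were lost in 4 of 22 alternatives for Foxj3-ES (adjusted p up to 0.0602) and in 7 for Zbtb18-ES (up to 0.0741), nearly all of them with 1 library left out. Among these, the Foxj3-ES call was lost without Foxj3-ES replicate 1 (limma, adjusted p = 0.0553), and the Zbtb18-ES call without Zbtb18-ES replicate 1 (0.0741) or Control replicate 2 (0.0504). Ski, a relative of SnoN, had 85.1, 119.6 and 110.8 UQRPKM in Foxj3-ES and 105.3, 114.2 and 102.9 UQRPKM in Zbtb18-ES, against 189.7, 350.6 and 191.3 UQRPKM in Control. Control replicate 2 was again the highest library for Ski, and without it the log2 fold change was -0.87 in Foxj3-ES (limma, adjusted p = 0.0133) and -0.82 in Zbtb18-ES (adjusted p = 0.0234). Over the alternatives the adjusted p of Ski reached 0.0469 in Foxj3-ES. In Zbtb18-ES the call of Ski was lost without Zbtb18-ES replicate 1, at -1.10 (limma, adjusted p = 0.0515), and without Zbtb18-ES replicate 3, at -1.08 (adjusted p = 0.0571).

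Of 10 tested target genes, 3 fell in the Foxj3 line (7.01% of all genes) and 1 in the Zbtb18 line, a share near the 6.50% of all genes that fell there. Eomes, a T-box factor induced by Nodal in the embryo, had 28.0, 36.2 and 29.6 UQRPKM in Foxj3-ES, against 58.4, 49.8 and 49.4 UQRPKM in Control, at a log2 fold change of -0.73 (limma, adjusted p = 0.0421). The call of Eomes was lost in 11 of 22 alternatives, and its Zbtb18-ES value of -0.31 did not pass (limma, adjusted p = 0.378). It was lost also without Foxj3-ES replicate 1, at -0.66 (limma, adjusted p = 0.115), and without Control replicate 2, at -0.77 (adjusted p = 0.0571), with 0.00726 to 0.151 over the alternatives. Mixl1, a homeobox gene of the primitive streak, passed in both lines at very low levels, with 0.0, 0.0 and 1.2 UQRPKM in Foxj3-ES and 0.0, 0.6 and 0.0 UQRPKM in Zbtb18-ES, against 3.6, 2.4 and 3.0 UQRPKM in Control (limma, adjusted p = 0.0403 in Foxj3-ES and 0.0345 in Zbtb18-ES). T, which encodes Brachyury, was listed at 0 in all 3 Foxj3-ES libraries, against 3.2, 3.3 and 3.4 UQRPKM in Control (limma, adjusted p = 0.0182). Of 21 alternatives that could test them, Mixl1 lost its call in 11 for Foxj3-ES and 7 for Zbtb18-ES, and T in 3 for Foxj3-ES. Without Foxj3-ES replicate 1 the adjusted p in Foxj3-ES was 0.119 for Mixl1 and 0.0513 for T (limma). Without Zbtb18-ES replicate 1 the adjusted p of Mixl1 was 0.0519 for Foxj3-ES and 0.0979 for Zbtb18-ES, and without Control replicate 2 it was 0.0649 for each line. The summed markers of mesoderm and primitive streak, which are Eomes, Mixl1, T and Kdr, averaged 32.7 ± 3.88 UQRPKM in Foxj3-ES and 44.8 ± 4.94 UQRPKM in Zbtb18-ES, while the 3 Control libraries had 56.6 to 66.6 UQRPKM (SD, n = 3). Most of the sum was Eomes, with means of 31.3 UQRPKM in Foxj3-ES, 42.4 UQRPKM in Zbtb18-ES and 52.5 UQRPKM in Control. Kdr did not pass in either line (limma, adjusted p = 0.912 in Foxj3-ES and 0.398 in Zbtb18-ES). Fewer cells of a type and less RNA per cell cannot be told apart in such bulk libraries.

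**Figure D5:**
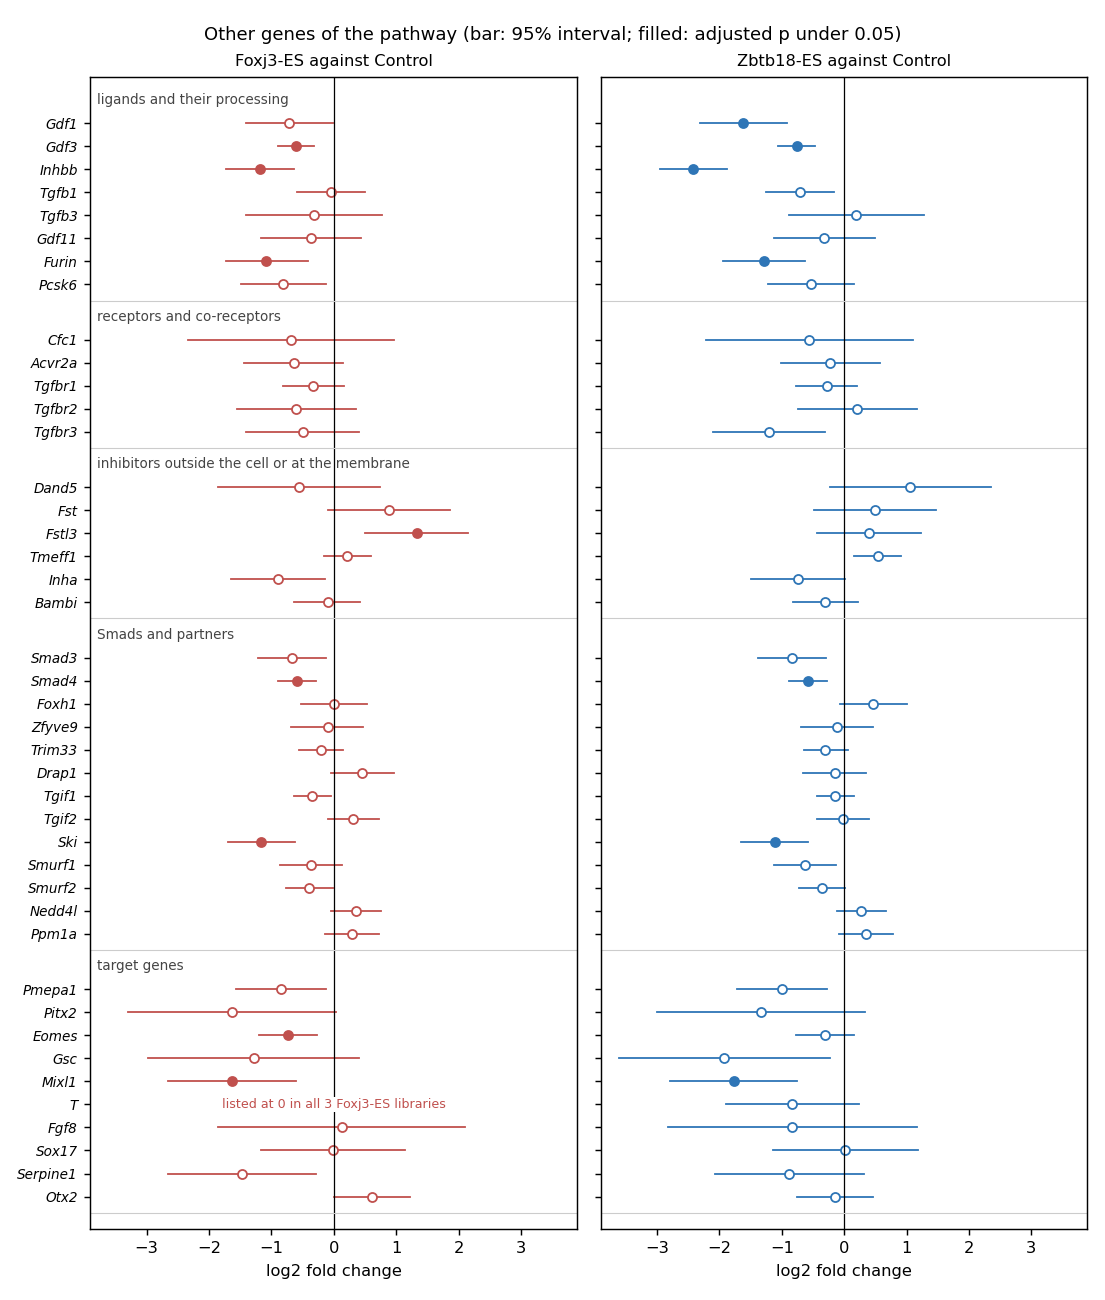
log2 fold changes of the 42 other pathway genes tested, by role, for Foxj3-ES against Control and Zbtb18-ES against Control; bars are 95% intervals, filled points passed an adjusted p of 0.05 (limma) and T has no point in Foxj3-ES, where it is listed at 0. Inhbb is lowest in Zbtb18-ES at -2.42 (-1.66 after correction for GC content and length), and no receptor is filled in either line.

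The 7 markers of the ESC state went both ways. In Foxj3-ES 3 of 7 fell (Nanog, Sox2 and Esrrb) and 0 rose (limma, with Pou5f1 the 1 gene higher at an unadjusted p under 0.05). Of all genes, 7.01% fell and 7.54% rose there. In Zbtb18-ES 2 of 7 fell (Nanog and Utf1) and 1 rose (Dppa5a), beside 6.50% and 5.31% of all genes. These marker calls were not followed over the alternatives. Nanog fell to 35.6% of the Control mean in Foxj3-ES (limma, adjusted p = 0.00117) and to 52.3% in Zbtb18-ES (adjusted p = 0.0110). Sox2 fell to 64.4% (limma, adjusted p = 0.0321) and Esrrb to 50.4% (adjusted p = 0.018) of the Control mean in Foxj3-ES. Utf1 fell to 48.8% of it in Zbtb18-ES (limma, adjusted p = 0.0237), while Dppa5a rose to 242% of it there (adjusted p = 0.0382). Pou5f1, which encodes Oct4, did not pass, at 0.39 in Foxj3-ES (limma, adjusted p = 0.144) and 0.44 in Zbtb18-ES (adjusted p = 0.116). Zfp42 did not pass either, at -0.29 in Foxj3-ES (limma, adjusted p = 0.205) and 0.06 in Zbtb18-ES (adjusted p = 0.845). Whether the cell state had a part in the differences of the Lefty genes was not tested.

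The genes whose pattern was most like that of a member were sought among 11060 named genes with a mean of at least 10 UQRPKM. The measure was the root mean square difference of centred log2(UQRPKM + 1) over the 9 libraries, so that 0 would be the same pattern. For Lefty1 the closest genes were Klf4 and Maml1 (0.39 each) and Zcchc3 (0.41), while Lefty2 was at 0.27. Klf4, a pluripotency factor, had 209.2, 211.2 and 252.1 UQRPKM in Foxj3-ES and 265.5, 349.4 and 294.6 UQRPKM in Zbtb18-ES, against 860.0, 939.8 and 936.1 UQRPKM in Control. For Lefty2 the closest were Chst3 (0.26), Notum (0.31) and Zfp704 (0.32), with Lefty1 at 0.27. Notum, a secreted inhibitor of Wnt ligands, had 15.7, 15.0 and 14.4 UQRPKM in Foxj3-ES and 30.7, 35.4 and 41.6 UQRPKM in Zbtb18-ES, against 52.9, 55.4 and 59.7 UQRPKM in Control.

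For Nodal the closest were Scamp4 (0.11), Ctif (0.12) and Zscan20 (0.13), and the nearest member was Acvr2b (0.25). Scamp4 shared the low value of Foxj3-ES replicate 1, with 104.3, 228.6 and 192.7 UQRPKM in Foxj3-ES and 269.7, 223.2 and 269.5 UQRPKM in Zbtb18-ES, against 356.3, 370.5 and 352.8 UQRPKM in Control. These genes were picked as the closest of 11060, so their being closer than the Lefty genes says nothing of Nodal and Lefty. The measure also depends on the size of a change: the root mean square of the centred values was 0.55 for Nodal and 0.97 for each Lefty gene. The values describe likeness over the 9 libraries, which differ in depth and base composition, and carry no test.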

How the data were processed

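All 9 libraries of undifferentiated J1 ESCs were used (Foxj3-ES, Zbtb18-ES and Control, 3 each). Per the labels total RNA was sequenced on an Ion Proton instrument, and the deposited table holds RPKM values that the authors scaled by upper quartile. The submitters' processing notes list mm10 and DESeq without versions. The sources used here do not name the aligner or counter. Reads were estimated from steps between low values with GENCODE M21 lengths, extended for the members by bases that RefSeq places beyond the gene. Of 72 member values so read, 48.6% were whole within 0.01, so no count test was run. limma 3.58.1 in R 4.3.3, with a trend, was fitted to log2(UQRPKM + 1) of the 22268 genes with at least 1 UQRPKM in at least 3 libraries. The fit held all 9 libraries and no block for the replicate number, and p-values were adjusted by Benjamini-Hochberg. The fit was first run on simulated data with independent normal noise for each gene. Those data held no shift by depth or base composition, so the run says nothing of such effects here. The members, lists, markers and 22 alternatives were chosen with earlier results of these data known. Of the other pathway genes, up to 4 per list with the largest called change are named.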

Additional observations from a re-analysis of the deposited data

Results flagged for a closer look

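Lefty2 differed between the 2 lines against the same Control libraries. Zbtb18-ES exceeded Foxj3-ES by 1.25 on the log2 scale (SE 0.19, limma, adjusted p = 0.0252), with all 3 Zbtb18-ES libraries above all 3 Foxj3-ES libraries. In 6 of 22 alternatives the adjusted p rose above 0.05, up to 0.116 without Zbtb18-ES replicate 3.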

How the results depend on the processing

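Lefty1, Lefty2 and Acvr2b in Foxj3-ES and Lefty2 in Zbtb18-ES kept their direction and call in all 22 alternatives. The number of members called in Foxj3-ES against Control was 4 as reported, 7 after scaling to the same sum, which added Tdgf1, Smad7 and Skil, and 3 to 4 with 1 library left out. In Zbtb18-ES against Control it was 3 as reported and 1 to 4 with 1 library left out. Between the lines it was 1 as reported, 0 with only the 2 groups in the fit, and 0 to 1 with 1 library left out. It was 0 without Foxj3-ES replicate 2 or 3 or any 1 Zbtb18-ES library.

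Of the other pathway genes, 9 were called in Foxj3-ES as reported, 19 after same-sum scaling, 5 with 2 groups only and 2 to 9 with 1 library left out. In Zbtb18-ES 7 were called as reported, 12 after same-sum scaling, 11 with protein-coding genes only and 4 to 8 with 1 library left out. Between the lines 0 were called as reported, 1 each with a filter at 10 UQRPKM, with protein-coding genes only and after quantile normalization, and 0 to 2 with 1 library left out. The causes of these moves were not tested.

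Acvr1b and Smad2, never called, changed sign around 0. Acvr1b in Foxj3-ES was 0.02 as reported, -0.33 after same-sum scaling and -0.07 to 0.16 with 1 library left out. In Zbtb18-ES it was -0.05, and 0.00 by median ratio, 0.02 by quantile, 0.18 with GC and length correction with or without the block, and -0.14 to 0.09 with 1 library left out. Between the lines it was -0.07, and 0.12 by same sum, 0.00 by quantile, and -0.14 to 0.01 with 1 library left out. Smad2 in Foxj3-ES was -0.06, and 0.09 with GC and length correction with or without the block, and -0.21 to 0.11 with 1 library left out. In Zbtb18-ES it was -0.04, and 0.02 or 0.03 by median ratio, quantile and GC and length correction, and -0.09 to 0.06 with 1 library left out. Between the lines it was 0.03, and -0.06 with GC and length correction with or without the block, and -0.15 to 0.17 with 1 library left out.

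Libraries with the same replicate number showed no shared deviation from their group means, with correlations of -0.052 to 0.082. Those with different numbers had -0.090 to 0.092. Deviations from means of 3 libraries cannot settle whether the numbers pair cultures or batches. With the number as a block, 5 members were called in Foxj3-ES (Smad7 added), 2 in Zbtb18-ES (Skil lost) and 1 between the lines.

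Limits: 3 libraries a group bound the precision, Lefty1 rested on an estimated 30 reads in its lowest library, and leaving out a library leaves 2 in its group, assumed to vary like the others.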
